A study of Homo sapiens with 9 samples.

Results

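The genes described here were grouped as protein targets of caffeine, the adenosine receptors ADORA1, ADORA2A, ADORA2B and ADORA3 and the cyclic nucleotide phosphodiesterases PDE3A, PDE3B, PDE4A, PDE4B, PDE4D and PDE8A. Their members were all probe sets of the array whose annotation names exactly 1 of these 10 genes, whatever their values. That gave 30 probe sets of 9 of the 19775 genes with a probe set of their own, 5 for receptors and 25 for phosphodiesterases, among 54613 probe sets in all, of which 41091 name 1 gene. ADORA2A has no member, because its 1 probe set on the array names a further gene as well, and no value is given for it.

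RNA was profiled on Affymetrix HG-U133 Plus 2.0 arrays from HT29, a cell line established from a human colon cancer, in 3 groups of 3 arrays. Control cells received no treatment. The group named CA was kept for 24 h with caffeic acid, a coffee phenol, at 1.68 µg/mL, and the group named ICC was kept for 24 h with instant caffeinated coffee at 7 µg/mL. The amount of caffeine in that coffee is not given in the labels, and no group received caffeine alone. Replicates are numbered 1 to 3 in each group, and nothing in the labels says that they were separate cultures, so any p-value is relative to the scatter of these particular arrays, which may be technical.

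Adenosine outside the cell is read by G protein-coupled receptors. ADORA1 and ADORA3 lower adenylyl cyclase activity through Gi, while ADORA2A and ADORA2B raise it through Gs, and the cAMP that cyclases make is broken down by phosphodiesterases. Caffeine is a competitive antagonist of the receptors at low concentrations and inhibits many phosphodiesterases only at much higher ones, although PDE8A is known for resisting methylxanthine inhibitors. In colon epithelium ADORA2B is the receptor known for driving cAMP-dependent chloride secretion, and cAMP acts on transcription through protein kinase A and the factor CREB, whose classical binding sequence is TGACGTCA.

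Because several phosphodiesterase genes are known to respond to cAMP, the start regions of the members were searched for the letters TGACGTCA and for the shorter TGACG on both strands (CGTCA when read on the other), the shorter one being part of the longer. RefSeq start regions of 300 bases, from 250 before to 50 after a transcript start on GRCh38.p14, were given for 8 of the 10 genes in 26 windows, with none for ADORA2A or PDE3B. TGACGTCA stood in 1 of 26 member windows, at PDE4A, and in 649 of 35116 windows over the genome, or 1.85%. TGACG stood in 3 of 26, at ADORA2B, PDE4A and PDE4D, and in 8622 windows over the genome, or 24.6%. Of each of the 3 windows with a match, the 250 bases before the start are printed, 5′ to 3′ on the strand of the gene, because they show how differently the letters are spread, with TGACG and CGTCA in capitals. The printed part is chr17:15944880-15945129 on the plus strand for ADORA2B and chr5:59587626-59587875 on the minus strand for PDE4D. For PDE4A it is chr19:10416523-10416777 on the plus strand and runs on to 5 bases after the start, where the last match ends.
ADORA2B: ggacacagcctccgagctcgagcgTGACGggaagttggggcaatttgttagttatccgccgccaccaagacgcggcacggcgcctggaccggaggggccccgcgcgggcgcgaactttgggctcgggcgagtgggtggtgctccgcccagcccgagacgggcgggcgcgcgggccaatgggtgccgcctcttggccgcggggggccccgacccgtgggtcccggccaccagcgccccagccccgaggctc
PDE4A: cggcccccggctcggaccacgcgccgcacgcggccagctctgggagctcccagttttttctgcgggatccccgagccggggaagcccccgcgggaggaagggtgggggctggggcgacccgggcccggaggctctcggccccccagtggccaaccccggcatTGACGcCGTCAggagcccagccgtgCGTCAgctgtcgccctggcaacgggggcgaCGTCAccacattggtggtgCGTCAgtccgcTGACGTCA
PDE4D: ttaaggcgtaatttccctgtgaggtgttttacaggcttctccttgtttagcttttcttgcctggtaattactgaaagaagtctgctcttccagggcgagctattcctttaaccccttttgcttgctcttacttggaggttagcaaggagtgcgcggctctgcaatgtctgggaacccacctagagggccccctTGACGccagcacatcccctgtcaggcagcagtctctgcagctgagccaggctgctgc

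PDE4A has 5 windows and only this one holds a match, with 7 copies of the shorter letters, 2 of which overlap in the closing TGACGTCA. PDE4D has 8 windows, 1 of them with a match, and ADORA2B has 1 window. None of the 6 windows of PDE4B, 3 of PDE8A, or the single windows of ADORA1, ADORA3 and PDE3A holds either motif. A match is a description of the letters, and binding was not measured.

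The arrays were alike in overall brightness, with a median over all probe sets between 5.45 and 5.54 log2 units. All 10 marker genes of colon epithelium, among them CDX1, CDX2, VIL1 and KRT20, lay above the median of every array. Of the markers of other cell types, 1 of 4 measured for leukocytes (CD14), 1 of 5 for fibroblasts (COL1A1) and 1 of 4 for endothelium (PECAM1) lay above it in every array, and PTPRC, CD3E, ITGAM, COL1A2, COL3A1, DCN, LUM, VWF, CDH5 and KDR did not. The log2 of the summed leukocyte markers lay between 7.83 and 8.25 in Control, 7.54 and 7.84 in CA and 7.80 and 8.06 in ICC, that of the fibroblast markers between 7.83 and 7.94, 7.89 and 8.07, and 8.00 and 8.18, and that of the endothelial markers between 6.82 and 6.93, 6.83 and 6.93, and 6.92 and 7.11. The part of these levels in the differences below was not tested. In bulk RNA of this kind, fewer cells of a type and less RNA per cell cannot be told apart.

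A probe set was called above the array median when its log2 intensity exceeded the median of all probe sets in each of the 9 arrays. That held for 10 of 30 members from 6 of 9 genes, against 46.5% of all 54613 probe sets, while 15 members lay below in all 9 arrays and 5 lay on both sides. ADORA2B, all 3 probe sets of PDE3B, 3 of 4 of PDE8A and 1 each of ADORA1, PDE3A and PDE4D were above. None of the 2 probe sets of ADORA3, 5 of PDE4A or 3 of PDE4B was above in every array. Against the upper quartile of each array in place of its median, 5 members stayed above throughout, namely ADORA2B 205891_at, PDE3B 214582_at and PDE8A 1552931_a_at, 212521_s_at and 212522_at. An upper quartile by definition leaves fewer probe sets above it than a median does. No share over all probe sets is given beside this count, so it is not set against a background.

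**Figure D1:**
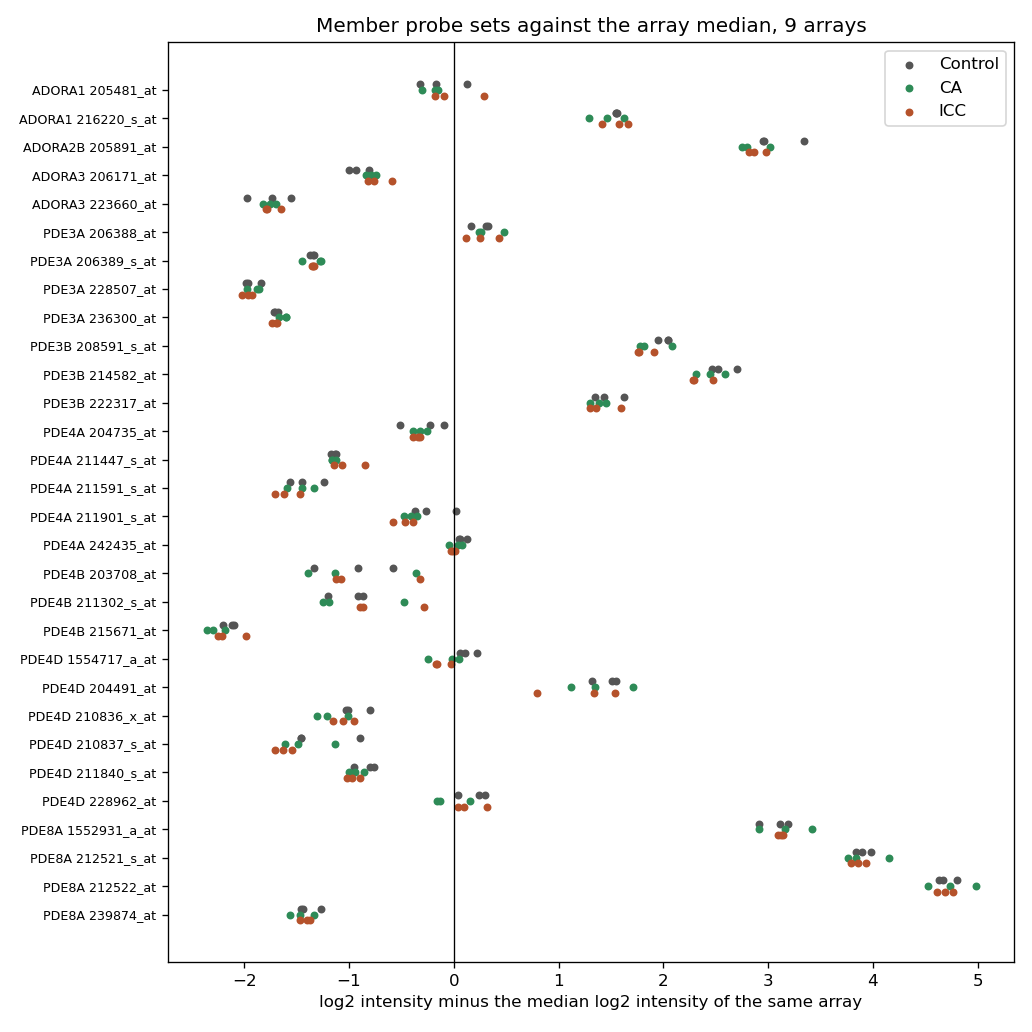
Each point is 1 array, and the horizontal axis is the log2 intensity of a member probe set minus the median log2 intensity of the same array, with Control in grey, CA in green and ICC in orange. ADORA2B, PDE3B and the 3 upper PDE8A probe sets lie to the right of the line at 0 in all 9 arrays, while ADORA3, PDE4B and 3 of 4 PDE3A probe sets lie to its left.

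The member just inside the limit was PDE3A 206388_at, 0.12 to 0.49 log2 above the array median. Over only the probe sets naming 1 gene, the array medians were higher, at 5.84 to 5.93. PDE3A 206388_at, at 5.61 to 5.99, lay on both sides of those and below them in every Control array. Just outside it were PDE4D 228962_at, above the median in 7 of 9 arrays and between -0.17 and 0.32 from it, and PDE4A 242435_at, above in 6 of 9 and between -0.052 and 0.12. PDE4D 1554717_a_at was above in 4 of 9 arrays, ADORA1 205481_at in 2 of 9 and PDE4A 211901_s_at in 1 of 9. Brightness on an array also depends on how well the probes of a set bind, so a level here says how far a probe set stood from the array median and does not rank the genes by transcript number.

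ADORA2B, the receptor that raises cAMP in this epithelium, stood 2.75 to 3.34 log2 above the array median through its only probe set, 205891_at. Its log2 intensity was 8.81, 8.43 and 8.44 in Control replicates 1 to 3. In CA it was 8.47, 8.21 and 8.31, and in ICC it was 8.41, 8.31 and 8.45. Control replicate 1 was the highest of the 9 arrays, and both treated groups overlapped Control. The group means were 8.56 ± 0.22 (SD, n = 3) in Control, 8.33 ± 0.13 in CA and 8.39 ± 0.075 in ICC. ADORA2B was 0.23 log2 units lower in CA than in Control (difference -0.23, SE 0.11, 95% interval -0.48 to 0.019, limma adjusted p = 0.986), with the same sign in 3 of 3 pairs of equal replicate number. For ICC the difference was -0.17 (SE 0.11, interval -0.42 to 0.080, limma adjusted p = 0.699), with that sign in 2 of 3 pairs. Without Control replicate 1 these came to -0.10 and -0.043. A fit with the replicate number gave ADORA2B an SE of 0.0842 in CA and in ICC. Its unadjusted limma p was then 0.0202 in CA and 0.0711 in ICC, and the adjusted p 0.541 and 0.427. ICC and CA differed by 0.061 (interval -0.19 to 0.31), so the data left room for a difference of either sign.

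ADORA1, a receptor that lowers cAMP, is read by a pair of probe sets that stood apart from each other. 216220_s_at lay 1.29 to 1.65 log2 above the array median in all arrays, with 7.03 in each of the 3 Control arrays, 6.91, 6.75 and 7.13 in CA and 7.20, 7.07 and 6.88 in ICC. The Control arrays held exactly the same value, as happened in 0.661% of all probe sets, so their spread for this probe set is 0 and says nothing of the error between cultures. Equal values in at least 2 arrays were found in 19 of 30 members and in 54.0% of all probe sets. The other ADORA1 probe set, 205481_at, lay near the median, with 5.60, 5.31 and 5.16 in Control, 5.27, 5.16 and 5.36 in CA and 5.83, 5.31 and 5.38 in ICC. ICC was 0.25 log2 above CA there (SE 0.15, 95% interval -0.081 to 0.57, limma adjusted p = 1.00), or 0.084 without ICC replicate 1. The groups overlapped in both ADORA1 probe sets.

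ADORA3, the other Gi-coupled receptor, lay below the median throughout. Probe set 223660_at ranged from 3.51 to 3.93 over the 9 arrays. 206171_at was 4.47, 4.67 and 4.55 in Control, 4.71, 4.67 and 4.67 in CA and 4.78, 4.67 and 4.88 in ICC. The highest Control array and the lowest ICC array met at 4.67. The mean of ICC exceeded that of Control by 0.22 (SE 0.0799, 95% interval 0.038 to 0.39, unadjusted p = 0.0219 and limma adjusted p = 0.555), the only member higher in ICC at an unadjusted p under 0.05. In the array where it came nearest to the array median, this probe set stood at -0.59 log2 units from it.

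Of the cGMP-inhibited phosphodiesterases, PDE3B, known for its part in insulin's action on lipolysis, was above the median by all its probe sets, and PDE3A, known from heart muscle and platelets, by 1 of 4. PDE3A 206388_at was 5.78, 5.64 and 5.81 in Control, 5.71, 5.70 and 5.99 in CA and 5.97, 5.61 and 5.72 in ICC, which overlap. Its other probe sets ranged over only 4.06 to 4.20 (206389_s_at), 3.50 to 3.63 (228507_at) and 3.75 to 3.91 (236300_at). The 4 differences of PDE3A lay between -0.019 and 0.032 for ICC and between 0.0099 and 0.075 for CA against Control, and none passed the test.

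PDE3B 214582_at was 7.99, 7.94 and 8.18 in Control, 7.90, 7.77 and 8.10 in CA and 7.82, 7.78 and 7.94 in ICC. Replicate 3 was the highest in each group, and ICC lay below Control in 3 of 3 pairs, with the highest ICC array at the value of the lowest Control array. 208591_s_at was 7.42, 7.52 and 7.52 in Control, 7.27, 7.24 and 7.59 in CA and 7.31, 7.25 and 7.38 in ICC, so that ICC and Control did not overlap. The differences of ICC from Control were -0.19 (SE 0.0996, 95% interval -0.41 to 0.029, limma adjusted p = 0.636) for the first and -0.18 (SE 0.0975, interval -0.39 to 0.039, limma adjusted p = 0.649) for the second. Without Control replicate 3 the first was -0.12. A fit with the replicate number gave 214582_at an unadjusted limma p of 0.0182 and 208591_s_at one of 0.0561, with adjusted p of 0.296 and 0.401. The remaining PDE3B probe set, 222317_at, was 6.90, 6.83 and 7.10 in Control, 6.90, 6.76 and 6.90 in CA and 6.84, 6.85 and 7.07 in ICC, and its groups overlapped. All 3 PDE3B probe sets had a negative difference from Control in ICC (-0.19 to -0.024) and in CA (-0.12 to -0.091) with the values as deposited. The signs stayed negative under each scaling tried, with ICC at -0.17 to -0.0027 after a further quantile normalization, but none passed the test.

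The PDE4 genes encode cAMP-specific enzymes that rolipram inhibits, and their probe sets made up 14 of the 30 members. PDE4A lay at or below the array median. Its probe set 211901_s_at was 5.20, 5.11 and 5.50 in Control, 5.04, 5.11 and 5.03 in CA and 4.96, 5.10 and 5.00 in ICC. All ICC arrays lay below all Control arrays, Control replicate 3 being the highest, and CA met Control at 5.11. The difference of ICC from Control was -0.25 (SE 0.0984, 95% interval -0.47 to -0.031, unadjusted p = 0.0292 and limma adjusted p = 0.573), or -0.13 without Control replicate 3. The other PDE4A probe sets ranged over 4.97 to 5.39 (204735_at), 4.30 to 4.69 (211447_s_at), 3.78 to 4.23 (211591_s_at) and 5.41 to 5.61 (242435_at). Of the 5, 4 had a negative difference from Control in ICC and 5 in CA, and they did not share a size, running from -0.25 to 0.14 in ICC.

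PDE4B, the form known for its induction by cAMP and inflammatory signals, varied more with the replicate number than with treatment in 2 of its 3 probe sets. 211302_s_at was 4.60, 4.57 and 4.28 in Control, 4.97, 4.27 and 4.26 in CA and 5.26, 4.62 and 4.57 in ICC. 203708_at was 4.89, 4.57 and 4.15 in Control, 5.09, 4.33 and 4.12 in CA and 5.22, 4.41 and 4.35 in ICC. Replicate 1 was the highest array in 3 of 3 groups for both. For 203708_at the means of replicate numbers 1, 2 and 3 over the groups were 5.07, 4.44 and 4.20, a range of 0.86, while the group means spanned 0.14. For 211302_s_at these ranges were 0.58 and 0.33. A wider range between numbers than between groups was found in 17 of 30 members and in 56.9% of all probe sets, so the members as a whole were near the background in this respect.

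The difference of PDE4B 211302_s_at between ICC and Control was 0.33 (SE 0.22, 95% interval -0.15 to 0.82, limma adjusted p = 0.695). By pairs of equal replicate number it was 0.66, 0.057 and 0.29. With the replicate number in the model the SE was 0.11, the unadjusted p 0.0141 and the limma adjusted p 0.280. Against CA, ICC was 0.32 higher (SE 0.22, interval -0.17 to 0.81, limma adjusted p = 1.00), and the pairs gave 0.30, 0.35 and 0.31. Without ICC replicate 1 the difference from Control was 0.11 and that from CA 0.10, and without CA replicate 1 the latter was 0.55. All 3 PDE4B probe sets had a positive difference of ICC from Control, but only 2 of 3 did when arrays were centred on their medians or weighted, and 215671_at lay as low as 3.15 to 3.56.

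**Figure D2:**
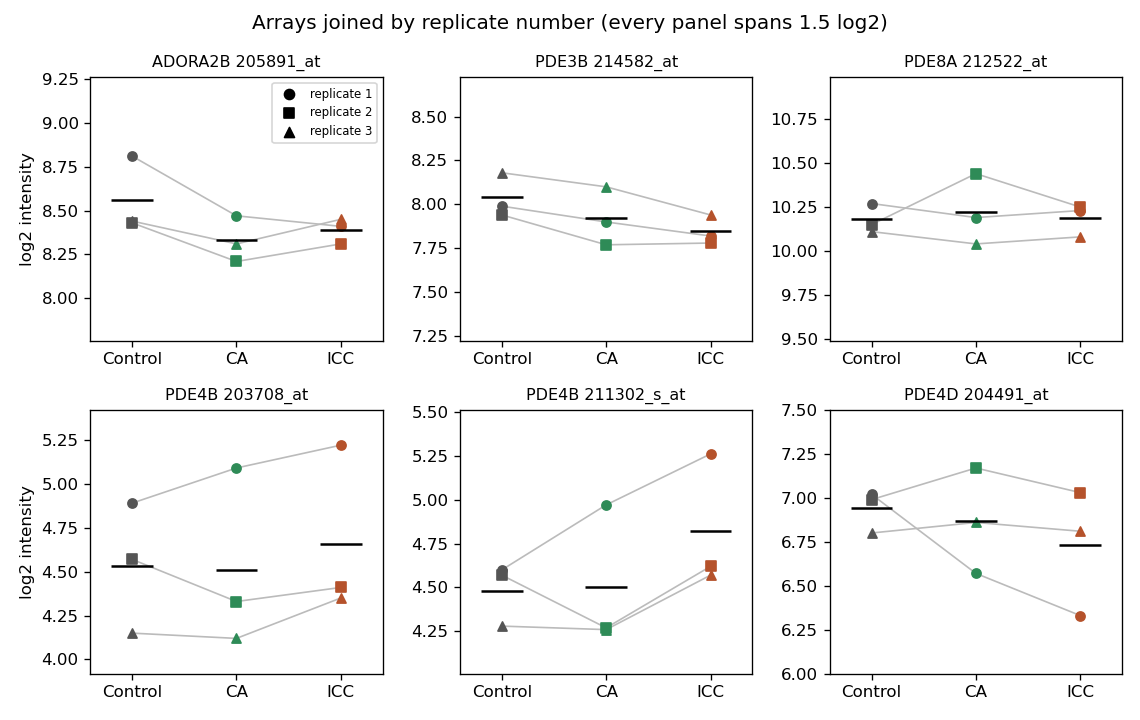
Log2 intensity (vertical axis) in the 3 groups for 6 member probe sets, with 1 point per array, grey lines joining arrays of equal replicate number and black bars at group means; every panel spans 1.5 log2 units. In both PDE4B panels replicate 1 is the highest array of each group, while in the PDE8A and ADORA2B panels the Control arrays lie farther apart than the group means do.

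PDE4D has 6 members. With the values as deposited, all 6 had a negative difference from Control in ICC (-0.33 to -0.019, median -0.16) and in CA (-0.25 to -0.072, median -0.17). The signs stayed negative under each scaling tried, while the sizes moved. In ICC they ran from -0.36 to -0.045 with arrays centred on their medians. With log2 of the value plus 16 they were smaller, from -0.18 to -0.015 (median -0.11). Both comparisons use the same Control arrays, and the probe sets read 1 gene, so these signs are not independent. The mean of the 6 probe sets differed from Control by -0.16 in ICC (SE 0.076, limma adjusted p = 0.596) and by -0.17 in CA (SE 0.076, limma adjusted p = 1.00).

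Of these, 1554717_a_at was 5.53, 5.59 and 5.70 in Control, 5.20, 5.51 and 5.49 in CA and 5.37, 5.46 and 5.31 in ICC. All 6 treated arrays lay below all 3 Control arrays. The difference was -0.22 in ICC (SE 0.0950, 95% interval -0.44 to -0.014, unadjusted p = 0.0386, limma adjusted p = 0.585) and -0.21 in CA (SE 0.0950, interval -0.42 to 0.0044, unadjusted p = 0.0541, limma adjusted p = 0.986), or -0.11 in CA without CA replicate 1. 210837_s_at was 4.57, 4.02 and 4.02 in Control, 3.96, 4.33 and 3.90 in CA and 4.00, 3.86 and 3.76 in ICC. There, too, ICC did not overlap Control, with a difference of -0.33 (SE 0.16, interval -0.68 to 0.024, limma adjusted p = 0.624) that was -0.15 without Control replicate 1, the highest array. This probe set was dim, at -1.71 to -0.90 log2 from the array median. Its means in CA (4.06) and ICC (3.87) lay below the average lower quartile of the arrays, 4.15. With log2 of the value plus 16 the ICC difference was -0.17.

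The only PDE4D probe set above the array median throughout, 204491_at, was 7.02, 6.99 and 6.80 in Control, 6.57, 7.17 and 6.86 in CA and 6.33, 7.03 and 6.81 in ICC. Replicate 1 was the lowest array of CA and of ICC and the highest of Control, and the groups overlapped. 228962_at was 5.51, 5.72 and 5.78 in Control, 5.29, 5.61 and 5.38 in CA and 5.64, 5.53 and 5.79 in ICC, with CA lower than Control by a difference of -0.25 (SE 0.11, 95% interval -0.49 to -0.0064, unadjusted p = 0.0452, limma adjusted p = 0.986). 210836_x_at was 4.46, 4.68 and 4.45 in Control, 4.14, 4.45 and 4.30 in CA and 4.39, 4.43 and 4.52 in ICC, with a CA difference of -0.23 (SE 0.0967, interval -0.44 to -0.015, unadjusted p = 0.0381, limma adjusted p = 0.986). In 228962_at CA overlapped Control, and in 210836_x_at the highest CA array and the lowest Control array were both at 4.45. The last, 211840_s_at, ranged from 4.46 to 4.71.

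PDE8A, a high-affinity cAMP phosphodiesterase, was above the array median in all arrays by its probe sets 212522_at, 212521_s_at and 1552931_a_at, which stood 4.54 to 4.98, 3.76 to 4.15 and 2.91 to 3.42 log2 above it. 212522_at was 10.27, 10.15 and 10.11 in Control, 10.19, 10.44 and 10.04 in CA and 10.23, 10.25 and 10.08 in ICC. 212521_s_at was 9.45, 9.38 and 9.32 in Control, 9.29, 9.61 and 9.27 in CA and 9.33, 9.42 and 9.33 in ICC. 1552931_a_at was 8.66, 8.59 and 8.39 in Control, 8.61, 8.88 and 8.42 in CA and 8.63, 8.61 and 8.61 in ICC. CA replicate 2 was the highest array in all 3, and every group overlapped the others. The fourth probe set, 239874_at, lay below the median at 3.90 to 4.20. Differences from Control ran from -0.021 to 0.069 in ICC and from -0.067 to 0.089 in CA. For 212522_at the ICC difference was 0.011 (SE 0.10, 95% interval -0.22 to 0.24), an interval that leaves room for a change of about that size either way.

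No member passed the test in any comparison. At an adjusted p under 0.05 limma called 0 of 54613 probe sets, or 0%, for ICC against Control, for CA against Control and for ICC against CA, and so 0 of 30 members in each. With the replicate number in the model it called 2 probe sets for ICC against Control and 0 for the other comparisons, none of them a member. The lowest member adjusted p was 0.555 for ICC against Control, 0.986 for CA against Control and 1.00 for ICC against CA, or 0.280, 0.530 and 0.882 with the replicate number in the model.

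At an unadjusted p under 0.05, 3 of 30 members (10.0%) were found for ICC against Control, 1 higher (ADORA3 206171_at) and 2 lower (PDE4A 211901_s_at and PDE4D 1554717_a_at), against 8.23% of all probe sets. For CA against Control it was 2 of 30 (6.67%), both lower and both of PDE4D, against 4.68%. For ICC against CA it was 0 of 30, against 2.65%. These shares lie near the background, and with the replicate number in the model they were 6 of 30 (20.0%) against 12.8%, 4 of 30 (13.3%) against 8.22% and 3 of 30 (10.0%) against 5.51%. After arrays were centred on their medians, ICC against Control gave 6 of 30 members (20.0%), against 4430 of 54613 probe sets. ICC and Control did not overlap in 4 members (13.3%), all lower in ICC, against 11.8% of all probe sets; these were PDE3B 208591_s_at, PDE4A 211901_s_at, PDE4D 1554717_a_at and PDE4D 210837_s_at. CA and Control did not overlap in 1 (3.33%, against 7.85%) and ICC and CA in 0 (against 5.89%).

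Over all members the differences from Control ran from -0.33 to 0.33 in ICC, with a median of -0.019 and 17 of 30 below 0, where all probe sets had a median of 0.014 and 45.1% below 0. In CA they ran from -0.25 to 0.12 with a median of -0.064 and 21 of 30 below 0, against -0.0047 and 52.0%. ICC minus CA ran from -0.19 to 0.32 with a median of 0.00025 and 15 of 30 below 0, against 0.018 and 42.3%. The small shift of all probe sets depended on scaling. Of the probe sets at an unadjusted p under 0.05, 58.3% were higher in ICC than in Control as deposited and 40.5% after arrays were centred on their medians, and for ICC against CA these were 67.2% and 36.0%, with 50.9% after a further quantile normalization. With centring, 22 of 30 members and 54.2% of all probe sets lay below 0 for ICC against Control.

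**Figure D3:**
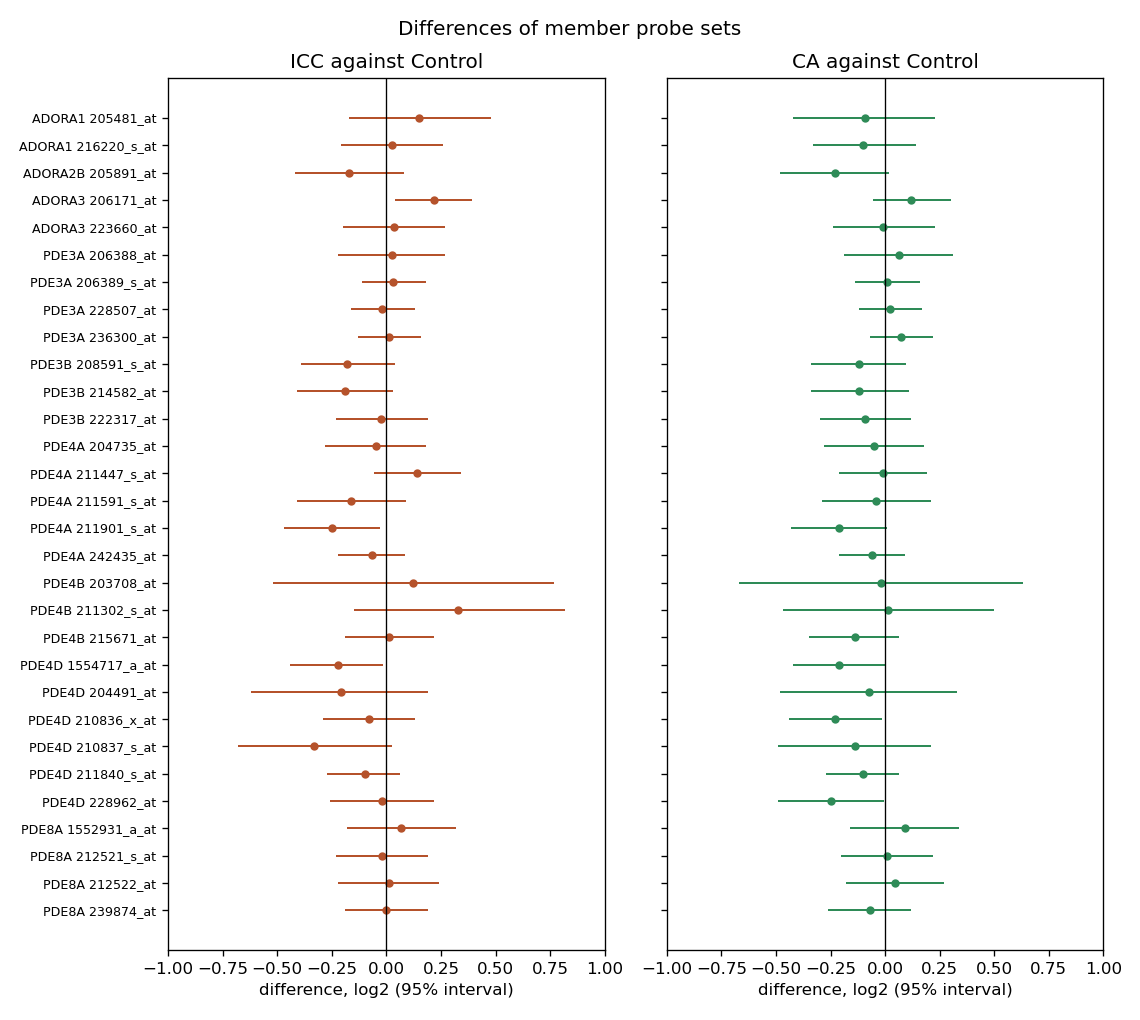
Difference in log2 intensity from Control (horizontal axis) of each member probe set, for ICC on the left and CA on the right, with points at limma estimates from 3 arrays a group and lines for the 95% interval. All 6 PDE4D points lie left of 0 in both panels, the PDE4B intervals are among the widest, and most intervals cross 0.

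The rest of the adenosine and cAMP pathway was read from 7 lists of 88 genes, of which 82 were measured, with each gene represented by its brightest probe set. None of the 82 passed at an adjusted p under 0.05 (limma, over 19775 genes, of which 0% passed in each comparison). At an unadjusted p under 0.05, 6 list genes were higher and 1 lower in ICC than in Control, against 1153 and 376 of all genes (7.73% together), and with the replicate number in the model 9 were higher and 4 lower, against 1664 and 789 (12.4% together). For CA they were 3 higher and 3 lower, against 505 and 378 (4.47% together), or 4 and 7 with the replicate number, against 798 and 890 (8.54% together). For ICC against CA they were 5 higher and 0 lower, against 434 and 98 (2.69% together), or 7 and 0 with the replicate number, against 916 and 262 (5.96% together). The median difference over the 82 genes was 0.059 in ICC, where that of all genes was 0.028, and 0.0018 in CA, where it was 0.0027. Values of single genes depended on the probe set: with all probe sets of a gene averaged, 20 of the 28 differences that led their lists were over 1.5 times smaller and 0 over 1.5 times larger. These 28 had been picked for the smallest p on the brightest probe set, so smaller values on another measure were likely beforehand.

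Among genes that supply or remove adenosine, 0 of 14 in ICC and 1 of 14 in CA had an unadjusted p under 0.05. Over all genes the shares at that p were 7.73% in ICC and 4.47% in CA. The list gene in CA was ENTPD1, the ectonucleotidase that starts adenosine formation from ATP. Its difference was -0.30 in CA (SE 0.11, limma adjusted p = 0.996) and -0.21 in ICC. The nucleoside transporters SLC28A3 and SLC28A1 had differences of -0.24 and 0.038 in ICC and of -0.23 and -0.21 in CA. With averaged probe sets ENTPD1 came to -0.11 in CA and -0.020 in ICC, SLC28A3 to -0.14 in ICC and SLC28A1 to -0.059 in CA. The brightest probe set of ENTPD1 lay above the array median in 1 of 9 arrays, that of SLC28A1 in 2 and that of SLC28A3 in 9. Of 15 G protein and adenylyl cyclase genes, 3 were higher in ICC and 2 in CA at an unadjusted p under 0.05. Among all 19775 genes, 1153 were higher in ICC and 505 in CA at that p. The cyclases ADCY1 (0.36 in ICC, SE 0.11, limma adjusted p = 0.614, and 0.25 in CA) and ADCY5 (0.22 in ICC and 0.27 in CA, SE 0.0684 for both) were those with the smallest p, and the probe sets of both lay below the array median in every array. With averaged probe sets ADCY1 came to 0.13 in ICC and 0.076 in CA, and ADCY5 to 0.20 and 0.16. None of the 16 other phosphodiesterase genes measured had an unadjusted p under 0.05 in ICC or in CA, with PDE1C, the calmodulin-dependent form, at 0.21 and 0.24 (0.048 and 0.049 with averaged probe sets), PDE6H, the cone photoreceptor subunit, at -0.20 and -0.13, and PDE6D, a carrier of prenylated proteins, at 0.13 and 0.11. The brightest probe set of PDE1C lay above the array median in 1 of 9 arrays, that of PDE6H in 0 and that of PDE6D in 9.

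Downstream of cAMP, 10 genes of protein kinase A and EPAC were measured, and 1 was higher in ICC while 1 was higher and 1 lower in CA at an unadjusted p under 0.05. Among all 19775 genes, 1153 were higher in ICC, and 505 were higher and 378 lower in CA at that p. PRKACA, a catalytic subunit of protein kinase A, had means of 6.61 in ICC, 6.48 in CA and 6.25 in Control, a difference of 0.36 for ICC (SE 0.0983, limma adjusted p = 0.614) and of 0.23 for CA, and neither treated group overlapped Control. With the mean of all PRKACA probe sets in place of the brightest, the ICC value was 0.10 and the CA value -0.019. PRKACB, the other common catalytic subunit, differed by -0.34 in CA (SE 0.0854, limma adjusted p = 0.996), or -0.19 with averaged probe sets, and by -0.11 in ICC. RAPGEF3, the cAMP-activated exchange factor EPAC, differed by 0.15 in ICC, or 0.084 with averaged probe sets, and 0.057 in CA.

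None of 7 genes of CREB factors and coactivators had an unadjusted p under 0.05. EP300 and CRTC1, which are coactivators of CREB, differed by 0.27 and 0.12 in ICC and by 0.20 and 0.061 in CA, and CREB1 itself by -0.032 and 0.11. Averaged probe sets gave 0.056 and 0.063 for EP300, 0.066 for CRTC1 in ICC and 0.029 for CREB1 in CA. Of 14 genes known to be induced by cAMP, 1 was higher and 1 lower in ICC and 1 was lower in CA at an unadjusted p under 0.05. Of all genes, 7.73% in ICC and 4.47% in CA reached that p. PPARGC1A, a coactivator of mitochondrial and gluconeogenic genes, had the smallest p of the lists in ICC, with a difference of 0.43 (SE 0.0920, unadjusted p = 8.0e-04, limma adjusted p = 0.614), or 0.26 with averaged probe sets, and 0.18 in CA. PCK1, which encodes a gluconeogenic enzyme, had differences of -0.30 in ICC (SE 0.0986, limma adjusted p = 0.614) and -0.35 in CA, and IRS2, an insulin receptor substrate, of -0.20 and -0.31. PPARGC1A and PCK1, both textbook cAMP-induced genes, thus differed from Control with opposite signs in ICC, and both were below the array median in all arrays.

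Of 6 genes of other caffeine targets and caffeine clearance, 1 was higher in ICC and 0 in CA at an unadjusted p under 0.05. Among all 19775 genes, 1153 were higher in ICC and 505 in CA at that p. XDH, which forms uric acid and oxidises methylxanthine products, differed by 0.21 in ICC (SE 0.0805, limma adjusted p = 0.627) and by 0.0098 in CA. The calcium release channels RYR1 and RYR2 differed by 0.16 and -0.092 in ICC and by 0.094 and -0.13 in CA, and CYP1A2, the main enzyme of caffeine breakdown in liver, by 0.12 and 0.22. In CA averaged probe sets gave -0.048 for RYR2 and 0.093 for CYP1A2. The brightest probe set of XDH lay above the array median in 1 of 9 arrays, those of RYR1 and RYR2 in 0 and that of CYP1A2 in 9.

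**Figure D4:**
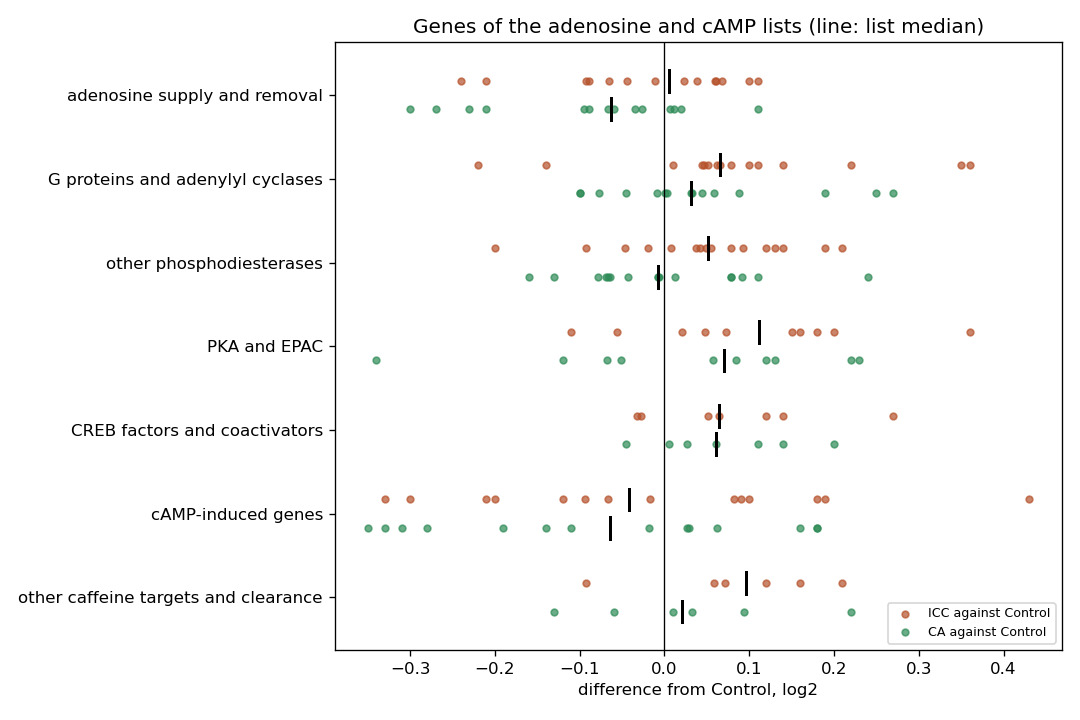
Each point is 1 gene of a list, read by its brightest probe set, placed by its difference in log2 intensity from Control, with ICC in orange, CA in green and a black mark at the list median. Every list has members on both sides of 0 in both comparisons, and the point farthest to the right is PPARGC1A in ICC at 0.43.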

How the data were processed

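Total RNA was labelled with biotin and hybridised to 1-colour arrays, per the labels' protocols. The deposited table holds linear intensity values to which the authors had applied RMA, as the submitters' processing notes state; no version or setting is recorded in the sources used here. RMA models background and equalises array distributions, which compresses differences of dim probe sets. The log2 of each intensity was taken here. Of 54675 probe sets, 62 controls were left out. Gene symbols came from the platform annotation (41091 probe sets with 1 symbol, 1801 with several, 11721 with none listed), 41037 matched the RefSeq gene table by Entrez identifier and 0 symbols were updated.

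All 54613 probe sets were fitted with limma 3.58.1 (lmFit and eBayes, R 4.3.3) over 9 arrays in 3 groups, with Benjamini-Hochberg adjustment over all and a threshold of 0.05; SE and 95% intervals are those of the moderated test. Pathway genes were tested the same way on the brightest probe set of each of 19775 genes. Named were all members and, from each list, the 2 genes with the smallest p in ICC and the 2 in CA against Control. The members, lists and tests were chosen with earlier results of these data known. With 3 arrays a group precision is limited by their number. Replicate numbers pair the arrays: the deviations of same-numbered arrays from their group means correlated at 0.327 to 0.518 in all 9 pairs, and others at -0.436 to 0.0839 in 18, a pairing that comes from the data, since the labels do not say what a number marks. The script was tested on simulated data. Python 3.11.15 and matplotlib 3.10.9 served for tables and figures. Alternatives covered the replicate block, normalization, log offset, dim probe sets, weights, variance prior, arrays fitted, gene level and single arrays left out.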

Additional observations from a re-analysis of the deposited data

How the results depend on the processing

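No member and no list gene passed the adjusted test under any alternative tried. Of 44 differences followed for single members and list genes, 43 kept their sign under every alternative run on them, but sizes moved: averaging the probe sets of a gene made 20 of 28 list gene differences over 1.5 times smaller, such as PRKACA in ICC from 0.36 to 0.10, ADCY1 from 0.36 to 0.13, EP300 from 0.27 to 0.056 and PPARGC1A from 0.43 to 0.26. PRKACA in CA went from 0.23 to -0.019. Since the 28 had been picked for the smallest p on the brightest probe set, smaller values after averaging were likely beforehand. Most of the 44 were followed for a small p or for groups that did not overlap, so kept signs were likely beforehand too. Some alternatives, such as the replicate block and the intensity trend, change the error and leave the difference itself as it was. The count of kept signs is therefore no measure of stability. With the replicate number as a block, ICC against Control gave 2 called probe sets in place of 0, and at gene level the block called 3 genes for CA against Control and 1 for ICC against CA, none from the lists; it changed no other call. At an unadjusted p under 0.05 the block gave 7015, 4487 and 3010 probe sets in place of 4492, 2554 and 1448, and 6, 4 and 3 members in place of 3, 2 and 0, for ICC and CA against Control and for ICC against CA. It gave 13 list genes in place of 7 for ICC and 11 in place of 6 for CA, while the share of all genes went from 7.73% to 12.4% and from 4.47% to 8.54%. Centring arrays gave 6 of 30 members (20.0%) for ICC, against 4430 of 54613 probe sets, and 1 for CA, against 2648. As deposited, ICC gave 3 members against 4492 probe sets. A further quantile normalization gave 2 members for ICC, against 4550 probe sets, and 1 for CA, against 2737. For CA, log2 of the value plus 16 and an intensity trend each gave 1, and fitting only the arrays of both groups gave 0. For ICC against CA, list genes at that p went from 5 to 3 with quantile normalization, 2 with centring and 2 with averaged probe sets. No share over all genes or probe sets is given beside these list counts or the 3 CA settings just before. They are therefore not set against a background. Leaving out single arrays gave 0 (without ICC replicate 3) to 4 members for ICC, 1 to 3 for CA and 0 to 2 for ICC against CA; 5 to 12, 3 to 9 and 0 (without ICC replicate 1) to 9 (without ICC replicate 2) list genes; and 1088 (without ICC replicate 1) to 2238 (without ICC replicate 2) probe sets for ICC against CA. Over all probe sets, single arrays left out gave 3138 to 4780 at that p for ICC and 2113 to 3296 for CA. The cause of these changes was not tested. For list genes with single arrays left out, no share over all genes is given. Members above the array reference numbered 5 in place of 10 with the upper quartile, a stricter limit for any probe set. They numbered 10 without any single array. Since a member had to be above in every array, leaving out an array could not lower that count, so it is no check of stability. The alternatives at gene level other than the block and averaging, and those on the count above the median by quantile normalization and single arrays, were chosen after seeing the data. The signal of the members over background was not measured, since no detection call or background level was used here.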
